A study of Oryctolagus cuniculus with 8 samples.

Results

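The WNT pathway genes were described in IPFSCs, the stromal stem cells of the infrapatellar fat pad behind the patellar tendon of the knee, against ScASCs, the stromal stem cells of inguinal subcutaneous fat. Genes were taken by symbol from the deposited expression table. They comprise the WNT ligands, the frizzled receptors, the other receptors ROR1, ROR2 and RYK, the co-receptor LRP6, the secreted frizzled-related and dickkopf proteins, the R-spondins with their receptors, and the dishevelled, axin and TCF/LEF proteins together with FRZB, WIF1, PORCN, WLS, CTNNB1, APC, ZNRF3 and NKD1. The symbols marked 56 of 20586 genes in the table, 12843 of which have a symbol. Both cell types were grown from collagenase digests of fat from the same 4 New Zealand white rabbits, each 4 months old and with no genetic change or treatment. RNA of passage 1 cells was sequenced, with 4 IPFSC and 4 ScASC libraries, so that each cell type is represented by adherent cells expanded once in growth medium and not by fresh tissue. Levels are given in RPKM, reads scaled to gene length and to the number of mapped reads, which allows genes of different length to be set side by side.

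WNT proteins are secreted lipid-modified ligands that bind a frizzled receptor. With LRP5 or LRP6 as co-receptor they stop the breakdown of beta-catenin, which then enters the nucleus and acts with TCF/LEF factors. With ROR or RYK receptors they act on cell shape and movement without beta-catenin. In mouse, beta-catenin signalling holds back the conversion of precursors into adipocytes, and its level is known to influence whether mesenchymal cells take the bone or the cartilage path.

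The 8 libraries were sequenced to similar depth. The file does not hold total read counts, but the value of a single read in low genes gave relative depths of 0.883 to 0.946 in the IPFSC libraries and 0.825 to 1.00 in the ScASC libraries, with ScASC 1 set to 1. Between 14126 and 14346 genes were above 0 in the IPFSC libraries and between 14056 and 14182 in the ScASC libraries. All 11 stromal markers were above 0 in every library, and 7 of 8 endothelial markers (CDH5, ERG, KDR, PECAM1, TEK, TIE1 and VWF) stayed under 1 RPKM in all. Of 10 leukocyte and macrophage markers, 3 (PTPRC, TYROBP and CD163) were at 0 in all libraries, 3 were above 0 in every library and 1 was tested and not called, with a summed level of 13.7 to 27.9 RPKM in IPFSC libraries and 11.8 to 22.7 RPKM in ScASC libraries. Of 8 tested pericyte and smooth muscle markers, MCAM and CSPG4 were higher and MYOCD was lower in IPFSCs. The summed level of that list was 228 to 1461 RPKM in IPFSC libraries and 172 to 2320 RPKM in ScASC libraries. Of 5 tested cartilage and synovial lining markers, ACAN was higher in IPFSCs and the others were not called. That list summed to 45.2 to 83.0 RPKM in IPFSC libraries and 40.2 to 57.4 RPKM in ScASC libraries. Of 4 tested adipocyte markers and 5 tested cycling markers, 0 were called. The skeletal muscle and epithelial markers summed to 2.98 to 8.10 RPKM in IPFSC libraries and 2.28 to 64.9 RPKM in ScASC libraries, where ScASC 1 stood apart through the keratin KRT8 (63.8 RPKM). The part of such cell states in the WNT differences was not tested, and in bulk RNA fewer cells of a type and less RNA per cell cannot be told apart.

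A gene was tested where its mean RPKM was above 1 in at least 1 cell type. This left 35 of the 56 WNT pathway genes, and the other 21 were under that level in both. Of the 35, 29 were above 1 RPKM in both cell types. WNT11 and SFRP5 entered only through IPFSCs, and WNT10B, WNT2, LGR5 and DKK2 only through ScASCs. Log2 fold changes are IPFSC over ScASC on log2(RPKM + 1), which understates the change of genes near 1 RPKM. A gene is called higher or lower at a Benjamini-Hochberg adjusted p under 0.05 in limma over 11294 genes.

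Of the 35 tested genes, 12 were called, 5 higher in IPFSCs (SFRP2, FZD1, SFRP5, TCF7L2 and LRP6) and 7 lower (WNT4, WNT2, FZD7, LGR4, LEF1, ROR2 and RYK). Over all tested genes 4.98% were called, 2.67% higher and 2.31% lower. Among the 29 genes above 1 RPKM in both cell types, which did not pass the level threshold through 1 cell type, 10 were called, 4 higher and 6 lower, against 3.97% of the 10793 genes in the table that met the same condition (2.08% higher and 1.89% lower). The median size of the log2 fold change was 0.52 in those 29 genes and 0.12 in those 10793, and the signed median was -0.17 and -0.00. The libraries of the 2 cell types did not overlap in 16 of the 35, with IPFSCs above in 6 and below in 10, where 11.8% of all tested genes did not overlap (6.07% above and 5.73% below). Among the 16 were WNT2, LGR5 and SFRP5, which had passed the level threshold only through the cell type in which they were high. With the replicate number as a block, which compares the cells of each rabbit with each other, 16 of the 35 were called, the same 12 with FZD2, FZD5, LGR5 and ZNRF3 added, against 8.05% of all genes. Without ScASC 1, the library high in KRT8, 5 were called (FZD1, ROR2, SFRP2, SFRP5 and WNT4). In that fit 285 of 11308 genes were called higher and 277 lower, against 301 and 261 of 11294 with all libraries. The fits with 1 library left out gave 2 to 9 called WNT pathway genes, with 166 to 297 higher and 149 to 277 lower genes in all. The part of ScASC 1 in the WNT calls was not tested.

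**Figure D1:**
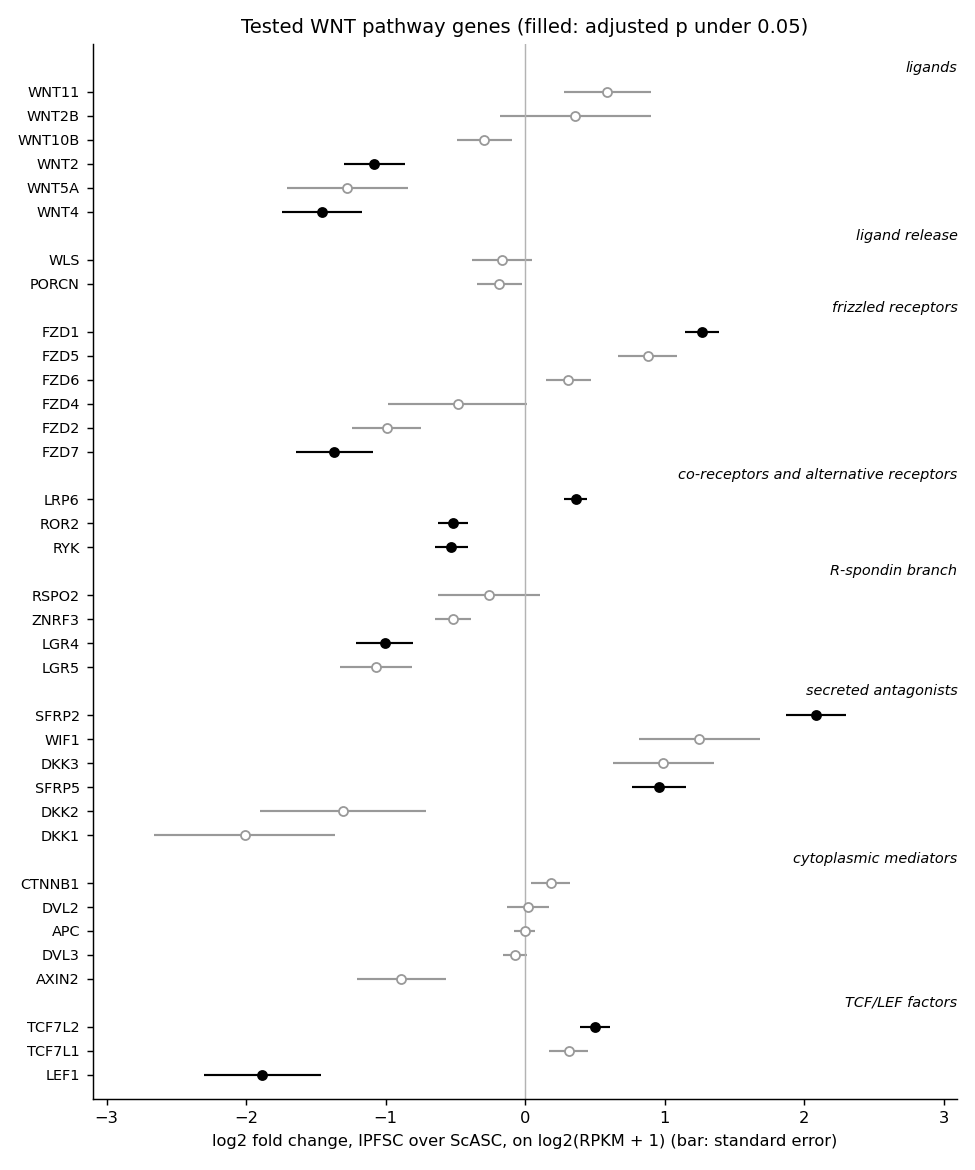
Log2 fold change of the 35 tested WNT pathway genes, IPFSC over ScASC on log2(RPKM + 1), grouped by role along the vertical axis, with bars for the standard error and filled points for an adjusted p under 0.05 in limma. The 5 filled points on the right are SFRP2, FZD1, SFRP5, TCF7L2 and LRP6, and the cytoplasmic mediators other than AXIN2 lie close to 0.

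Among the ligands, WNT4 and WNT2 were lower in IPFSCs, WNT5A had the highest mean of the ligands in both cell types, and no ligand was called higher. The table holds 18 WNT ligand genes, 6 of which passed the level threshold. WNT4 (ENSOCUG00000022473), a ligand needed for kidney and female reproductive tract development, had 1.10, 0.994, 1.96 and 1.12 RPKM in IPFSC 1 to 4, against 9.41, 5.77, 4.45 and 2.86 RPKM in ScASC 1 to 4. Every IPFSC library was below every ScASC library, and IPFSC 3 was the highest of its group. The WNT4 log2 fold change was -1.45 (SE 0.29, adjusted p = 0.0240 by limma). The adjusted p was 0.0518 to 0.0746 when IPFSC 1, IPFSC 2, IPFSC 4 or ScASC 2 was left out.

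WNT2 (ENSOCUG00000016173), a ligand that acts through beta-catenin in lung development in mouse, had 0.0928, 0.193, 0.135 and 0 RPKM in IPFSC 1 to 4, against 1.84, 2.17, 0.901 and 0.728 RPKM in ScASC 1 to 4. These levels rest on 18 reads over the 4 IPFSC libraries and 243 reads over the 4 ScASC libraries. The cell types did not overlap, and the mean in IPFSCs was 0.0748 times that in ScASCs. Its log2 fold change was -1.08 (SE 0.22, adjusted p = 0.0255 by limma), and without IPFSC 1, 2, 3 or 4 or without ScASC 1 or 2 the adjusted p was 0.0540 to 0.0737. Since WNT2 was above 1 RPKM only in ScASCs, it could enter the test only through the cell type in which it was high.

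WNT5A, the best known ligand of the branch without beta-catenin, had 12.3, 14.4, 20.2 and 11.7 RPKM in IPFSC 1 to 4, against 83.7, 35.0, 15.4 and 36.8 RPKM in ScASC 1 to 4. ScASC 1 stood highest and ScASC 3 lay within the IPFSC range. For WNT5A the log2 fold change was -1.27 (SE 0.43, adjusted p = 0.161 by limma), so that it did not pass the test with all libraries. Without ScASC 3 it was -1.67 with an adjusted p of 0.0324. WNT2B was above WNT5A in IPFSC 2 and the ranges of both overlapped in IPFSCs, so that their order there did not stand beyond the spread between rabbits. WNT5A made up 52.9 ± 14.8% of the summed ligand RPKM in IPFSCs and 68.0 ± 16.5% in ScASCs (mean ± SD, n = 4 each).

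The other tested ligands were not called. WNT2B, a close relative of WNT2, had 8.59, 18.8, 2.45 and 4.80 RPKM in IPFSC 1 to 4, against 4.34, 6.17, 9.65 and 2.41 RPKM in ScASC 1 to 4, with no common direction in the 4 rabbits (log2 fold change 0.36, 95% interval -0.86 to 1.59). WNT11, which directs cell movement in the vertebrate embryo, had 0.334 to 3.25 RPKM in IPFSCs and 0.364 to 0.631 RPKM in ScASCs (log2 fold change 0.59, 95% interval -0.11 to 1.30). WNT10B, which holds back adipocyte formation in mouse, had 0.329 to 0.917 RPKM in IPFSCs and 0.684 to 1.55 RPKM in ScASCs (log2 fold change -0.29, 95% interval -0.74 to 0.16). The summed level of all ligands was 28.7 ± 8.14 RPKM in IPFSCs and 58.9 ± 30.0 RPKM in ScASCs (SD, n = 4 each), with overlapping ranges of 20.8 to 40.0 RPKM in IPFSCs and 33.9 to 102 RPKM in ScASCs.

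The means of the other 12 ligands stayed under 1 RPKM in both cell types. WNT5B, WNT8A and WNT9A were present at low level in every library, WNT9A with 0.588 to 1.23 RPKM in IPFSCs and 0.397 to 1.18 RPKM in ScASCs. WNT7A was listed at 0 in all 8 libraries. WNT10A (0.109 RPKM) and WNT9B (0.0350 RPKM) were each above 0 in only 1 ScASC library. WNT3 (0.0582 RPKM) and WNT16 (0.0322 RPKM) were each above 0 in only 1 IPFSC library. From a single library the number of reads cannot be worked out. By the smallest numbers of reads that fit, WNT1, WNT3A, WNT6 and WNT8B never had more than 5 reads in a library. A count of 0 in a library allows up to 3 reads, so that low levels of these ligands were not detectable at this depth.

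The genes of ligand release did not pass the test. WLS, which carries WNT proteins to the cell surface, had 142, 152, 99.8 and 79.5 RPKM in IPFSC 1 to 4, against 156, 136, 109 and 119 RPKM in ScASC 1 to 4 (log2 fold change -0.17, 95% interval -0.65 to 0.32). PORCN, the enzyme that adds the lipid to WNT proteins, had 4.24 to 6.29 RPKM in IPFSCs and 5.29 to 8.43 RPKM in ScASCs (log2 fold change -0.18, 95% interval -0.55 to 0.18). Of the 2 genes, 0 had an unadjusted p under 0.05 in limma, against 16.5% of all tested genes.

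Among the frizzled receptors, FZD1 was higher and FZD7 lower in IPFSCs, while the summed frizzled level was 105 ± 4.98 RPKM in IPFSCs and 102 ± 5.70 RPKM in ScASCs (SD, n = 4 each). FZD1 (ENSOCUG00000003249) had 41.5, 53.3, 48.1 and 35.5 RPKM in IPFSC 1 to 4, against 18.0, 18.1, 17.5 and 17.2 RPKM in ScASC 1 to 4. The ScASC libraries were close to one another, and the lowest IPFSC library was far above all of them. The FZD1 log2 fold change was 1.27 (SE 0.12, adjusted p = 0.00114 by limma). FZD1 and SFRP2 were the only WNT pathway genes called under all 17 alternative settings, the 8 fits with 1 library left out among them.

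FZD7 (ENSOCUG00000011457), a receptor known for its role in embryonic and intestinal stem cells, had 10.4, 10.9, 8.61 and 12.1 RPKM in IPFSC 1 to 4, against 36.2, 40.2, 14.9 and 30.2 RPKM in ScASC 1 to 4. ScASC 3 was the lowest of its group and still above every IPFSC library. For FZD7 the log2 fold change was -1.37 (SE 0.28, adjusted p = 0.0270 by limma). The adjusted p was 0.0610 to 0.0890 without IPFSC 1, IPFSC 2, IPFSC 3, ScASC 1, ScASC 2 or ScASC 4.

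FZD5 and FZD2, both close to the threshold, passed it only when the replicate number was a block or under single other settings. FZD5 had 9.89, 9.58, 7.49 and 5.26 RPKM in IPFSC 1 to 4, against 4.14, 5.06, 3.63 and 2.71 RPKM in ScASC 1 to 4. All IPFSC libraries were above all ScASC libraries, and within each cell type the libraries numbered 4 were lowest. The FZD5 log2 fold change was 0.88 (SE 0.21), with an adjusted p of 0.0532 by limma, 0.00543 with the replicate block, 0.0439 with median-ratio scaling of the libraries and 0.0192 without IPFSC 4.

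FZD2 had 2.46, 3.99, 6.06 and 3.97 RPKM in IPFSC 1 to 4, against 7.75, 13.2, 8.64 and 6.85 RPKM in ScASC 1 to 4. Every IPFSC library was below every ScASC library, with IPFSC 3 the nearest. For FZD2 the log2 fold change was -0.99 (SE 0.25), with an adjusted p of 0.0591 by limma, 0.0333 with the replicate block and 0.0476 without IPFSC 3.

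FZD4 and FZD6 were not called. FZD4, the receptor for norrin as well as for WNT proteins, had 12.8, 8.08, 13.1 and 32.4 RPKM in IPFSC 1 to 4, against 9.83, 15.0, 40.6 and 30.4 RPKM in ScASC 1 to 4. Both libraries numbered 4 and ScASC 3 were high, and the cell types overlapped over nearly their whole range (log2 fold change -0.48, 95% interval -1.62 to 0.65). FZD6 had 17.9 to 22.3 RPKM in IPFSCs and 11.2 to 20.1 RPKM in ScASCs (log2 fold change 0.31, 95% interval -0.06 to 0.68). FZD3 and FZD9 were under 1 RPKM in all libraries.

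The order of the frizzled levels therefore differed between the cell types. FZD1 had 42.7 ± 7.10% of the summed frizzled RPKM in IPFSCs and 17.4 ± 1.00% in ScASCs (mean ± SD, n = 4 each). FZD7 had 10.0 ± 1.23% in IPFSCs and 29.7 ± 10.3% in ScASCs. FZD1 was the highest frizzled in each IPFSC library. In ScASC 1 and ScASC 2 the highest was FZD7, and in ScASC 3 and ScASC 4 it was FZD4, with FZD7 and FZD4 nearly level in ScASC 4. The ranges of FZD4, FZD6 and FZD7 overlapped in ScASCs, so that no order among the means of these receptors stood beyond the spread between rabbits. These shares are given as a description, without a test.

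**Figure D2:**
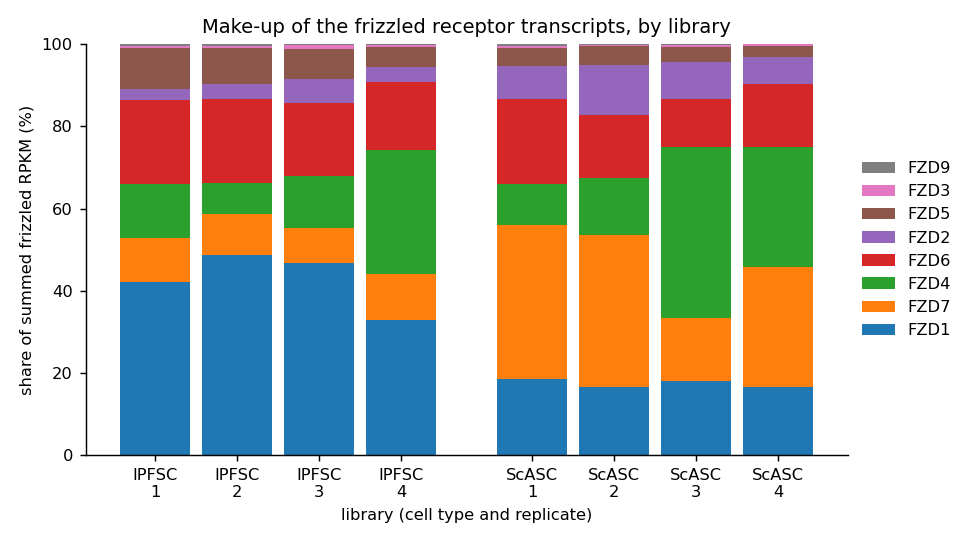
Share of each frizzled receptor gene in the summed frizzled RPKM of a library (vertical axis, percent), for the 4 IPFSC and then the 4 ScASC libraries. FZD1 takes 32.9 to 48.8% of the bar in IPFSC libraries and 16.6 to 18.6% in ScASC libraries, and FZD4 is widest in ScASC 3, ScASC 4 and IPFSC 4.

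All tested genes of the co-receptors and alternative receptors were called, LRP6 higher and ROR2 and RYK lower in IPFSCs, each by less than a fold change of 2. LRP6 (ENSOCUG00000003006), which pairs with frizzled receptors in beta-catenin signalling, had 21.4, 19.0, 19.2 and 18.3 RPKM in IPFSC 1 to 4, against 15.3, 15.6, 15.1 and 13.8 RPKM in ScASC 1 to 4. The cell types did not overlap, and the mean in IPFSCs was 1.31 times that in ScASCs. The LRP6 log2 fold change was 0.36 (SE 0.08, adjusted p = 0.0400 by limma). With any single library other than IPFSC 4 left out, the adjusted p was 0.0642 to 0.109.

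ROR2 (ENSOCUG00000016548), a receptor for WNT5A needed for cartilage growth plates in mouse and human, had 25.9, 26.4, 27.2 and 27.5 RPKM in IPFSC 1 to 4, against 30.9, 40.4, 41.2 and 43.5 RPKM in ScASC 1 to 4. The IPFSC libraries lay close together and ScASC 1 was the ScASC library nearest to them. For ROR2 the log2 fold change was -0.52 (SE 0.11, adjusted p = 0.0319 by limma). Without ScASC 1 the adjusted p was 0.00470, and without any other single library it was 0.0550 to 0.0989. Quantile normalization gave 0.0510.

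RYK (ENSOCUG00000017148), a WNT receptor with an inactive kinase domain, was the most abundant gene of this group, with 94.5, 104, 93.4 and 76.4 RPKM in IPFSC 1 to 4, against 144, 148, 116 and 125 RPKM in ScASC 1 to 4. Again the cell types did not overlap. The RYK log2 fold change was -0.53 (SE 0.12, adjusted p = 0.0403 by limma). Without IPFSC 1, IPFSC 3, IPFSC 4, ScASC 1, ScASC 2 or ScASC 4 the adjusted p was 0.0606 to 0.120, and it was 0.0515 with no filter on low RPKM and 0.0502 in limma without a trend. ROR1 was not tested, with 0.507 to 1.33 RPKM in IPFSCs and 0.0179 to 0.811 RPKM in ScASCs, where the lowest value, in ScASC 1, was 1 read.

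In the R-spondin branch LGR4 was called lower in IPFSCs. The 4 tested genes of the branch had negative log2 fold changes, as did 5749 of the 11294 tested genes. Of the 4, LGR5 had entered the test only through ScASCs, where it was high. R-spondins bind LGR4, LGR5 or LGR6 and take away the ubiquitin ligases ZNRF3 and RNF43, which otherwise remove frizzled receptors from the membrane. LGR4 (ENSOCUG00000004061) had 20.0, 21.1, 23.5 and 19.7 RPKM in IPFSC 1 to 4, against 43.5, 63.0, 44.9 and 28.3 RPKM in ScASC 1 to 4. The IPFSC libraries were all below the lowest ScASC library, ScASC 4. For LGR4 the log2 fold change was -1.01 (SE 0.21, adjusted p = 0.0281 by limma), and without IPFSC 1, 2, 3 or 4, ScASC 1 or ScASC 3 the adjusted p was 0.0575 to 0.0815.

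LGR5, a marker of intestinal stem cells, had 0.474, 0.647, 0.0794 and 0.116 RPKM in IPFSC 1 to 4, against 1.58, 2.81, 2.24 and 0.777 RPKM in ScASC 1 to 4. These values rest on 79 reads in the IPFSC libraries and 454 reads in the ScASC libraries. The cell types did not overlap. The LGR5 log2 fold change was -1.07 (SE 0.26), with an adjusted p of 0.0533 by limma, 0.0234 with the replicate block, 0.0462 with quantile normalization, 0.0465 in limma without a trend and 0.0234 without ScASC 4.

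ZNRF3 had 2.46, 2.38, 1.95 and 2.45 RPKM in IPFSC 1 to 4, against 3.75, 4.26, 2.89 and 4.16 RPKM in ScASC 1 to 4. Here too every IPFSC library was below every ScASC library. For ZNRF3 the log2 fold change was -0.52 (SE 0.13), with an adjusted p of 0.0593 by limma, 0.0334 with the replicate block, 0.0475 with quantile normalization, 0.0434 in limma without a trend and 0.0322 without ScASC 3.

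The R-spondin RSPO2 had 0.757 to 3.37 RPKM in IPFSCs and 1.33 to 4.33 RPKM in ScASCs (log2 fold change -0.26, 95% interval -1.08 to 0.57). RSPO3 was under the level threshold, with 0.0524 to 0.427 RPKM in IPFSCs and 0.0466 to 1.35 RPKM in ScASCs. LGR6 was listed at 0 in every library.

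Among the secreted antagonists, SFRP2 and SFRP5 were higher in IPFSCs and none was called lower. Secreted frizzled-related proteins carry a frizzled-like domain that binds WNT proteins outside the cell. SFRP2 (ENSOCUG00000016660) had 2058, 2235, 2148 and 1395 RPKM in IPFSC 1 to 4, against 585, 531, 328 and 413 RPKM in ScASC 1 to 4, the highest level of all WNT pathway genes in both cell types. The lowest IPFSC library, IPFSC 4, was well above the highest ScASC library. The mean was 1959 ± 383 RPKM in IPFSCs and 464 ± 116 RPKM in ScASCs (SD, n = 4 each), with a log2 fold change of 2.09 (SE 0.22, adjusted p = 0.00172 by limma). SFRP2 made up 97.8 ± 0.228% of the summed antagonist RPKM in IPFSCs and 92.4 ± 1.97% in ScASCs.

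SFRP5 (ENSOCUG00000021137), an adipose-expressed relative of SFRP2, was nearly absent next to it, with 1.15, 0.851, 2.24 and 1.81 RPKM in IPFSC 1 to 4, against 0.309, 0.321, 0.133 and 0.292 RPKM in ScASC 1 to 4. These values rest on 126 reads in the IPFSC libraries and 22 reads in the ScASC libraries. The cell types did not overlap, and SFRP5 could enter the test only through IPFSCs. The SFRP5 log2 fold change was 0.96 (SE 0.19, adjusted p = 0.0260 by limma), and without IPFSC 1, IPFSC 3, IPFSC 4, ScASC 2, ScASC 3 or ScASC 4 the adjusted p was 0.0509 to 0.0685.

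**Figure D3:**
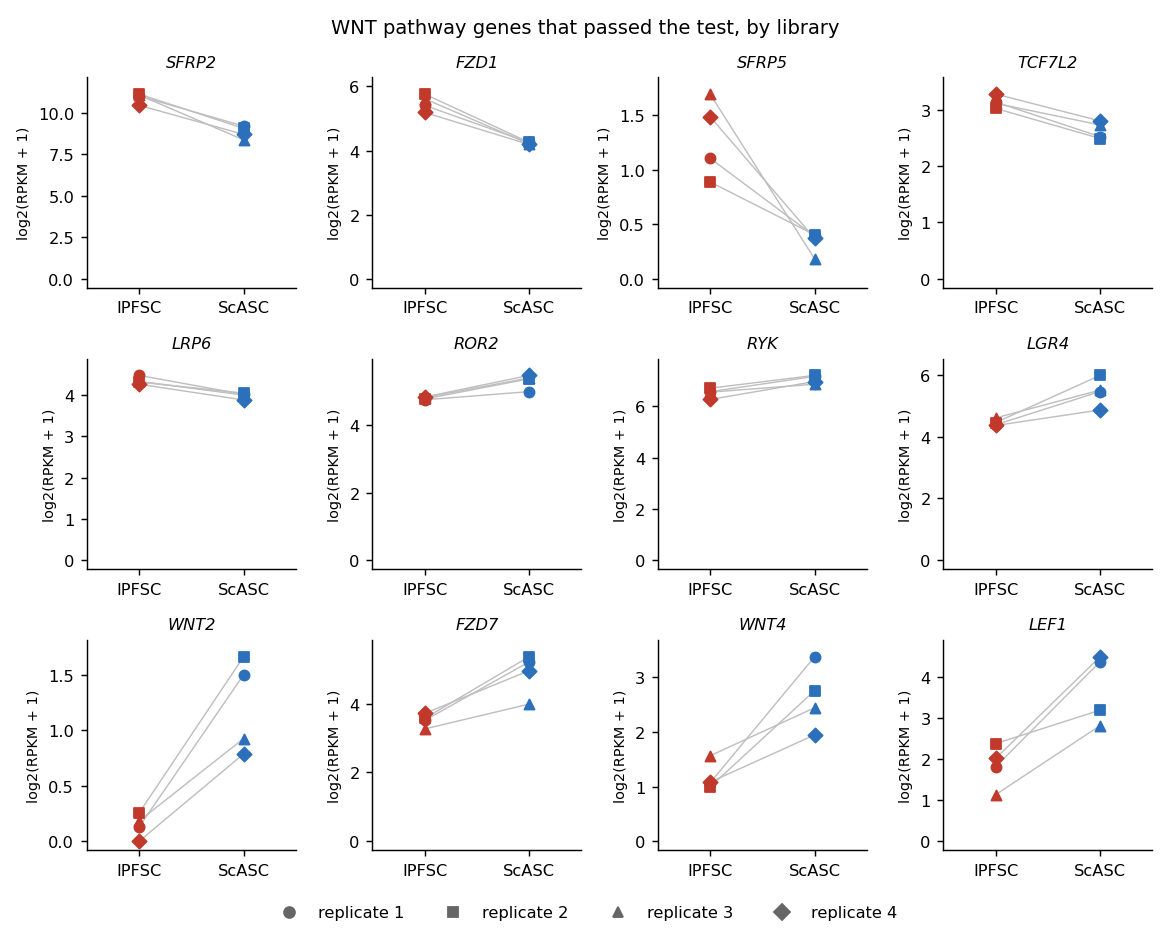
Level of the 12 called WNT pathway genes in each library, as log2(RPKM + 1) on the vertical axis, IPFSC on the left and ScASC on the right, with a line joining libraries of the same replicate number. In each of the 12 panels the IPFSC and the ScASC points do not overlap, and all 4 lines run the same way.

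The dickkopf genes differed widely between rabbits. DKK1, an inhibitor that binds LRP6, had 1.55, 12.2, 2.58 and 0.545 RPKM in IPFSC 1 to 4, against 32.0, 13.1, 8.93 and 9.58 RPKM in ScASC 1 to 4. It was lower in IPFSCs than in the ScASC library of the same number in 4 of 4 rabbits, but IPFSC 2 lay within the ScASC range. For DKK1 the log2 fold change was -2.01 (SE 0.65, adjusted p = 0.138 by limma), and without IPFSC 2 it was -2.62 with an adjusted p of 0.0245.

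DKK2 had 0, 0.128, 0.239 and 0.250 RPKM in IPFSC 1 to 4, against 0, 1.99, 9.28 and 1.12 RPKM in ScASC 1 to 4. Both libraries numbered 1 were at 0, and the other IPFSC libraries had at most 4 reads each. The DKK2 log2 fold change was -1.31 (SE 0.60, adjusted p = 0.330 by limma), with a 95% interval of -2.67 to 0.06. DKK3, a divergent dickkopf, had 39.4, 27.6, 37.8 and 20.8 RPKM in IPFSC 1 to 4, against 27.7, 10.3, 8.44 and 19.5 RPKM in ScASC 1 to 4. It was above the same-numbered ScASC library in each pair, although the ranges overlapped (log2 fold change 0.99, SE 0.36, adjusted p = 0.198 by limma).

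WIF1, a secreted protein that binds WNT ligands directly, had 11.0, 11.1, 2.77 and 3.90 RPKM in IPFSC 1 to 4, against 3.06, 1.45, 1.03 and 3.17 RPKM in ScASC 1 to 4. IPFSC 3 lay within the ScASC range. For WIF1 the log2 fold change was 1.25 (SE 0.43, adjusted p = 0.170 by limma). SFRP4 and FRZB were under the level threshold. SFRP4 had 0.0969 RPKM in IPFSC 1 and 0.0892 RPKM in ScASC 1, 2 reads in each, and 0.757 to 1.23 RPKM in the other 6 libraries, so that its low values followed the replicate number and not the cell type.

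**Figure D4:**
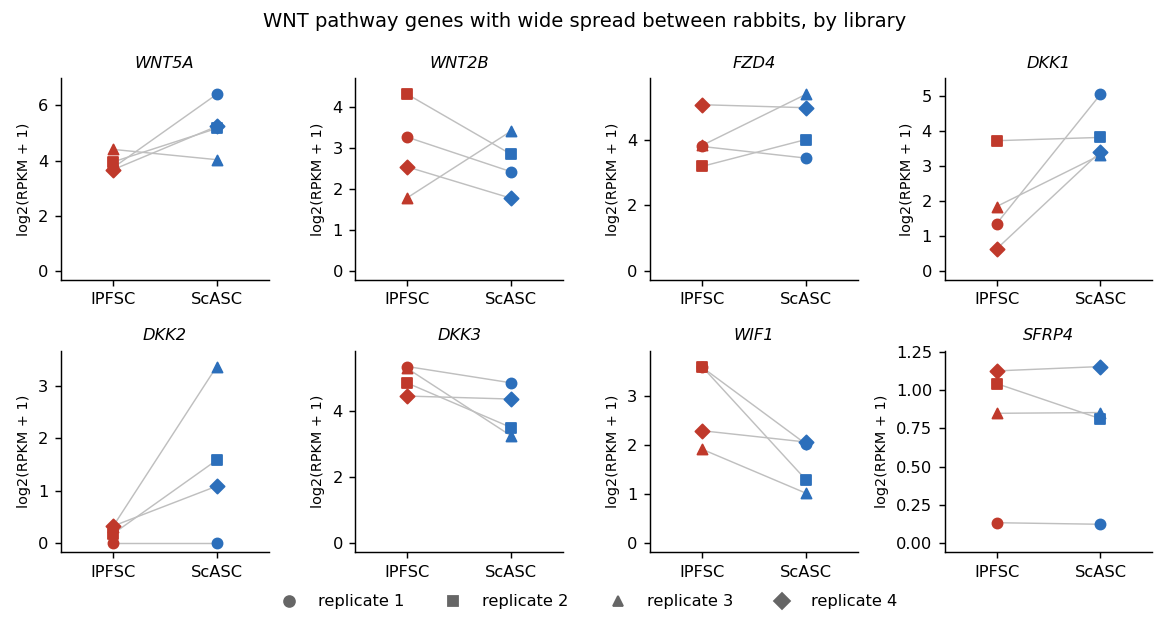
Level of 8 WNT pathway genes with a wide spread between libraries, as log2(RPKM + 1) on the vertical axis, IPFSC on the left and ScASC on the right, with a line joining libraries of the same replicate number. Of the 8, SFRP4 was under the level threshold and not tested, and the others did not pass the test with all libraries. In the SFRP4 panel both replicate 1 points lie apart at 0.0969 RPKM in IPFSC 1 and 0.0892 RPKM in ScASC 1.

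The cytoplasmic mediators had the smallest median size of log2 fold change among the roles (0.07), 0 of 5 tested genes being called and 1 having an unadjusted p under 0.05 in limma, where 16.5% of all tested genes did. CTNNB1, which encodes beta-catenin, had 166, 199, 237 and 182 RPKM in IPFSC 1 to 4, against 174, 161, 148 and 207 RPKM in ScASC 1 to 4. The ranges overlapped and the log2 fold change was 0.18, with a 95% interval of -0.13 to 0.50. APC, a scaffold of the complex that degrades beta-catenin, had 26.1 to 30.5 RPKM in IPFSCs and 27.7 to 28.0 RPKM in ScASCs, with a 95% interval of -0.17 to 0.17 for the log2 fold change. The dishevelled genes relay the signal from the frizzled receptors. The interval was -0.32 to 0.36 for DVL2 and -0.27 to 0.12 for DVL3, whose mean levels were 40.5 ± 1.72 RPKM in IPFSCs and 42.8 ± 3.98 RPKM in ScASCs (SD, n = 4 each).

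AXIN2, a scaffold of the same complex that beta-catenin signalling induces in many tissues, had 0.921, 2.96, 1.17 and 2.13 RPKM in IPFSC 1 to 4, against 1.86, 4.55, 6.07 and 4.39 RPKM in ScASC 1 to 4. It was below the same-numbered ScASC library in each rabbit, with overlapping ranges, and did not pass the test (log2 fold change -0.89, SE 0.32, adjusted p = 0.192 by limma). NKD1, a feedback inhibitor of dishevelled, was under the level threshold, with 0.0814 to 0.521 RPKM in IPFSCs and 0.0405 to 0.147 RPKM in ScASCs.

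Of the TCF/LEF factors, the DNA-binding partners of beta-catenin, TCF7L2 was higher and LEF1 lower in IPFSCs. LEF1 (ENSOCUG00000010436) had 2.50, 4.18, 1.19 and 3.04 RPKM in IPFSC 1 to 4, against 19.7, 8.12, 6.02 and 21.4 RPKM in ScASC 1 to 4. ScASC 1 and ScASC 4 stood far above the other libraries, and no IPFSC library reached the lowest ScASC library. The LEF1 log2 fold change was -1.88 (SE 0.42, adjusted p = 0.0392 by limma). With any single library other than ScASC 3 left out, the adjusted p was 0.0524 to 0.109, and with no filter on low RPKM it was 0.0609.

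TCF7L2 (ENSOCUG00000008142) had 7.79, 7.13, 7.66 and 8.71 RPKM in IPFSC 1 to 4, against 4.75, 4.61, 5.63 and 5.97 RPKM in ScASC 1 to 4. The cell types did not overlap, and the libraries numbered 4 were the highest of each. For TCF7L2 the log2 fold change was 0.50 (SE 0.11, adjusted p = 0.0336 by limma), and the adjusted p was 0.0552 to 0.104 when any single library other than ScASC 4 was left out, 0.0619 with no filter on low RPKM and 0.0550 with quantile normalization. TCF7L1, often a repressor, had 13.1, 12.5, 12.9 and 8.92 RPKM in IPFSC 1 to 4, against 9.48, 11.0, 8.14 and 8.63 RPKM in ScASC 1 to 4, and was not called (log2 fold change 0.31, 95% interval -0.01 to 0.64). TCF7 was under the level threshold, with 0.727 to 1.28 RPKM in IPFSCs and 0.360 to 0.811 RPKM in ScASCs.

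LEF1 made up 11.6 ± 4.95% of the summed TCF/LEF RPKM in IPFSCs and 44.7 ± 15.5% in ScASCs, and TCF7L1 50.6 ± 6.86% in IPFSCs and 34.0 ± 10.0% in ScASCs (mean ± SD, n = 4 each). In IPFSCs the order of levels was TCF7L1, TCF7L2, LEF1 and TCF7, with the range of TCF7L1 above that of TCF7L2 and that of TCF7L2 above that of LEF1, while the ranges of LEF1 and TCF7 overlapped. In ScASCs LEF1 had the highest mean, but its range held that of TCF7L1, so that LEF1 and TCF7L1 did not differ beyond the spread between rabbits.

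Several WNT pathway genes were set apart as feedback genes, which beta-catenin signalling can induce in some tissues. Whether SFRP2 or the others respond to it in these cells was not tested. Of the 10 such genes in the table, 7 were tested (AXIN2, LEF1, ZNRF3, LGR5, DKK1, WIF1 and SFRP2). An unadjusted p under 0.05 in limma was found for all 7 and for 16.5% of all tested genes, where LGR5 had entered the test only through ScASCs. SFRP2 was called higher and LEF1 lower. The others had negative log2 fold changes except WIF1, and with the replicate block ZNRF3 and LGR5 were also called lower. The median log2 fold change of the 7 was -0.89, beside -0.00 over all tested genes. The untested genes did not go the same way. TCF7 had a mean of 0.989 RPKM in IPFSCs and 0.548 RPKM in ScASCs, and NKD1 0.328 and 0.0989 RPKM. Both were higher in IPFSCs than in the same-numbered ScASC library in 4 of 4 rabbits, with overlapping ranges, and LGR6 was at 0.

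Further genes known to rise with beta-catenin signalling, none of them among the 56, had 4 called of 21 tested, against 4.98% of all tested genes. EPHB3, a receptor tyrosine kinase for ephrins, had 7.23, 9.74, 11.7 and 8.63 RPKM in IPFSC 1 to 4, against 5.19, 3.76, 3.31 and 4.32 RPKM in ScASC 1 to 4 (log2 fold change 1.00, SE 0.16, adjusted p = 0.0103 by limma). PPARD, a nuclear receptor for fatty acids, had 32.9 to 45.9 RPKM in IPFSCs and 17.1 to 26.3 RPKM in ScASCs (0.84, SE 0.15, adjusted p = 0.0154, and 0.0511 to 0.0541 without IPFSC 1, IPFSC 3 or ScASC 2). CD44, the hyaluronan receptor and also a stromal marker, had 110 to 151 RPKM in IPFSCs and 39.5 to 84.3 RPKM in ScASCs (1.18, SE 0.22, adjusted p = 0.0173, and 0.0564 to 0.0626 without IPFSC 1 or IPFSC 3). The TNF receptor family gene TNFRSF19 was called lower, with 0.153 to 0.346 RPKM in IPFSCs and 1.43 to 6.45 RPKM in ScASCs (-1.88, SE 0.34, adjusted p = 0.0172, and 0.0578 without IPFSC 3). TNFRSF19 could enter the test only through ScASCs, the cell type in which it was high. MYC, the target most often named, had 45.6 to 60.9 RPKM in IPFSCs and 44.9 to 52.3 RPKM in ScASCs and was not called. The median log2 fold change of the 21 genes was 0.14. With the replicate block, SMOC2 (higher, adjusted p = 0.0302) and EDN1 (lower, adjusted p = 0.0117) were called as well, where 8.05% of all tested genes were called.

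Beyond the 56 genes, other secreted or membrane regulators of WNT proteins had 4 called of 11 tested, against 4.98% of all tested genes. TRABD2B, a protease that cuts and inactivates WNT proteins, had 9.16, 7.59, 17.1 and 11.0 RPKM in IPFSC 1 to 4, against 1.82, 1.61, 2.34 and 0.401 RPKM in ScASC 1 to 4 (log2 fold change 2.28, SE 0.31, adjusted p = 0.00498 by limma). RECK, a membrane protein that acts as a WNT7 co-receptor with ADGRA2, had 11.1 to 18.8 RPKM in IPFSCs and 4.90 to 8.16 RPKM in ScASCs (1.05, SE 0.18, adjusted p = 0.0129). The heparan sulfate proteoglycan SDC4 had 159, 131, 166 and 126 RPKM in IPFSC 1 to 4, against 100, 83.0, 75.9 and 73.3 RPKM in ScASC 1 to 4 (0.80, SE 0.13, adjusted p = 0.0101). GPC6, another heparan sulfate proteoglycan, was called lower, with 23.6 to 28.1 RPKM in IPFSCs and 41.8 to 60.6 RPKM in ScASCs (-0.88, SE 0.12, adjusted p = 0.00516). These 4 calls held under all 17 alternative settings. With the replicate block, GPC3 (higher, adjusted p = 0.00340), ADGRA2 (lower, adjusted p = 0.0192) and LYPD6 (lower, adjusted p = 0.0363) were called as well, LYPD6 under 6 alternative settings in all. Over all tested genes 8.05% were called with the block. The median log2 fold change of the 11 genes was 0.13.

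The cytoplasmic and nuclear partners of the pathway had 2 called of 22 tested (9.09%), against 4.98% of all tested genes. Their median log2 fold change was -0.00. BCL9, a co-activator that binds beta-catenin, had 14.1 to 18.4 RPKM in IPFSCs and 10.5 to 12.6 RPKM in ScASCs (log2 fold change 0.50, SE 0.10, adjusted p = 0.0274 by limma). The adjusted p of BCL9 was 0.0666 to 0.0880 without IPFSC 1, IPFSC 2, IPFSC 3, ScASC 2, ScASC 3 or ScASC 4. TLE3, a co-repressor that binds TCF/LEF factors, had 10.8 to 13.4 RPKM in IPFSCs and 17.3 to 22.7 RPKM in ScASCs (-0.75, SE 0.11, adjusted p = 0.00770). Of 22 tested genes of the planar polarity and calcium branches, 0 were called by limma and 1 had an unadjusted p under 0.05, against 16.5% of all tested genes, with a median log2 fold change of 0.02.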

How the data were processed

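Strand-specific, poly(A)-selected RNA libraries were prepared from passage 1 IPFSCs and ScASCs of 4 rabbits (1 library per cell type and rabbit). Per the labels and the study's methods, the authors mapped the untrimmed reads to OryCun2.0 with the Subread aligner, assigned them to Ensembl genes with featureCounts, computed RPKM from the counts and tested for differential expression with edgeR. Versions of these tools, and whether strand was used in counting, are not given in the sources used here. The deposited values are on a log2 scale, log2(RPKM + 1), in which zeros appear as 1e-05. This scale was read from the values, since low genes are whole multiples of 1 read only after it is undone. The table also holds the authors' fold changes, p-values and expression averages, which were not used.

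The 20595 rows hold 20586 identifiers, 9 of them listed 2 times with identical values and used once. LRP6, FZD2 and WNT4 are among these. Values were set back to RPKM, and genes averaging more than 1 RPKM in either cell type were compared on log2(RPKM + 1) with limma 3.58.1 in R 4.3.3 (trended empirical Bayes, two-sided, Benjamini-Hochberg adjustment over 11294 genes). Whole reads were worked out from the values of 51 of the 56 genes within 0.05 of a whole number, as the smallest numbers that fit, so that true numbers may be multiples. The limit of 3 reads for a count of 0 covers counting error only, and the 95% intervals are those of the limma log2 fold changes over the libraries. The fit was tested on simulated data with independent noise in each gene and library, so that no effect of a shared rabbit was covered.

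The study states that the cells were donor-matched, and the labels number the libraries 1 to 4 in each cell type without stating that a number marks a rabbit. Deviations from the group means correlated at 0.53, 0.55, 0.25 and 0.66 (Pearson, across genes, which are not independent replicates) between libraries of the same number, so that the numbers were taken to mark rabbits. ScASC 3 correlated better with IPFSC 4 (0.33) than with IPFSC 3. The fit with the number as a block is given where it changed a call.

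All genes called were named by library, with those of a log2 fold change of at least 1 and the most abundant gene of each role. Members, gene lists and tests were chosen with earlier results of these data known. Alternatives were other pseudocounts, level thresholds, scalings and variance models, the replicate block and leaving out each library. No coordinates are given, since the annotation at hand is of another assembly and was used for names only, where all 56 symbols were found.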

Additional observations from a re-analysis of the deposited data

Results flagged for a closer look

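Among 88 groups of 4 libraries, 5 held a library that stood apart from the others by Dixon's test, of which about 1 in 20 is flagged by chance. FZD3 had 0.324 RPKM in ScASC 2, against 0.515 to 0.538 RPKM in the other ScASC libraries. WNT4 had 1.96 RPKM in IPFSC 3, where the other IPFSC libraries had 0.994 to 1.12 RPKM. ZNRF3 stood at 1.95 RPKM in IPFSC 3, below 2.38 to 2.46 RPKM in the other IPFSC libraries. SFRP5 was at 0.133 RPKM, from 3 reads, in ScASC 3, against 0.292 to 0.321 RPKM in the other ScASC libraries. TCF7L1 was at 8.92 RPKM in IPFSC 4, against 12.5 to 13.1 RPKM in the other IPFSC libraries. No cause was tested for any of these.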

How the results depend on the processing

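Over the 35 tested genes and 17 alternatives, 492 single values kept their direction and their side of the threshold, 68 lost their call, 15 gained one and 8 changed sign. No scaling moved the median log2 fold change of all genes by more than 0.02. The replicate block gave 487 genes higher and 422 lower over the whole table, against 301 and 261 without it, 4 called frizzled receptors against 2, 3 genes of the R-spondin branch against 1, 4 feedback genes against 2 and 7 other secreted or membrane regulators against 4, and it ended no call of a WNT pathway gene. Quantile normalization and limma without a trend each gave 3 genes of the R-spondin branch and 4 feedback genes, and quantile normalization gave 1 TCF/LEF factor against 2. With a mean RPKM above 5, 1 ligand and 1 antagonist were called, against 2 of each, since WNT2 and SFRP5 were no longer tested. With no filter on low RPKM, 0 TCF/LEF factors, 1 feedback gene and 1 gene of the planar polarity and calcium branches (NFATC2) were called. With a fold change above 2 required, 7 WNT pathway genes were called against 12, where 2.86% of all tested genes were called (1.61% higher and 1.25% lower). Some log2 fold changes of genes that were not called changed sign. APC was 0.00089 with quantile normalization. Leaving out 1 library at a time gave -0.046 to 0.026 for APC, -0.10 to 0.10 for DVL2 and -0.30 to 0.0078 for WLS. The same fits gave -0.083 to 0.76 for WNT2B and -0.51 to 0.00014 for RSPO2, which were 0.36 and -0.26 with all libraries. The cause was not tested. Leaving out 1 library at a time gave 166 to 297 higher and 149 to 277 lower genes in all, 2 to 9 called WNT pathway genes, 2 to 4 higher and 0 to 7 lower, and by role 0 to 3 ligands, 1 to 3 frizzled receptors, 0 to 1 co-receptors and alternative receptors, 0 to 2 of the R-spondin branch, 1 to 3 antagonists and 0 to 1 TCF/LEF factors. In the other lists it gave 1 to 2 cytoplasmic partners, 4 to 5 other secreted or membrane regulators, 1 to 4 beta-catenin targets and 1 to 3 feedback genes. The fewest WNT pathway genes, 2, were called without IPFSC 1 and the most, 9, without ScASC 3. Each of the 10 called genes other than FZD1 and SFRP2 lost its call without at least 1 of the libraries.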
